A study of Mus musculus with 24 samples.

Results

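Antioxidant defence in mouse embryonic fibroblasts (MEFs) was followed over 57 listed genes of redox control, glutathione metabolism and the NRF2 response. Each gene was read from its brightest probe set that carried a single gene symbol. That gave 52 measured genes of 19661 measured in all, and 51 of them passed a filter on low values that 14830 genes passed. To pass, a gene needed 3 or more of the 24 arrays with a log2 value over that array's 40th percentile. Gstt1, a theta class glutathione S-transferase, did not pass. Prdx5, Prdx6, Gpx4, G6pdx and Me1 were not analysed here. Prdx2 was the only member with 2 probe sets; after transformation the brighter one differed by 0.07 in Het and 0.07 in WT cultures on the log2 scale, and the other by -0.03 in Het and 0.15 in WT cultures, all in total RNA.

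The cells came from 6 embryos of stage E13.5. There were 3 embryos with genotype Eif4e+/- (here Het), which lack 1 working copy of the gene for the cap-binding translation factor eIF4E, and 3 WT embryos. From each embryo a culture transformed with Ras and Myc and its matched untransformed primary culture were profiled, both at early passage in medium with 10% serum during exponential growth. How the oncogenes were delivered, and whether a transformed culture was a clone or a pool, is not given in the sources used here. From each of the 12 cultures both total RNA and RNA of heavy polysomes, the mRNAs loaded with many ribosomes, were hybridised to Affymetrix Mouse Gene 1.0 ST arrays, which gave 8 groups of 3. Translational efficiency (TE) was the log2 polysomal value minus the log2 total value of the same culture (the study's own measure). The study's title asks about the role the dose of eIF4E has in development, cancer and protein synthesis.

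NRF2, encoded by Nfe2l2, is the transcription factor that switches on many of these genes. KEAP1 normally hands it over for degradation, and oxidants or reactive chemicals break that hold, after which NRF2 binds antioxidant response elements in promoters. Its targets fall into arms that share the reducing power of NADPH. The glutathione arm makes the tripeptide glutathione and spends it on peroxides and foreign chemicals. The thioredoxin and peroxiredoxin arm reduces peroxides through thiol relays, and the detoxification enzymes conjugate or reduce reactive compounds.

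The members were read by role, with 4 regulators, 11 detoxification enzymes, 5 peroxiredoxin genes, 5 thioredoxin genes, 7 genes of glutathione supply, 4 glutathione peroxidases, 4 genes for superoxide dismutases and catalase, 6 genes of NADPH supply, 3 of methionine repair and selenoprotein K, and 2 metallothioneins. The NADPH supply group counts Tkt and Taldo1, enzymes of the pentose phosphate pathway that do not make NADPH themselves. All values are log2 RMA intensities, and values of a group are given for embryos 1, 2 and 3 in that order. A gene was called when its Benjamini-Hochberg adjusted p over all 14830 genes was under 0.05 in limma. Levels were not compared between genes, because probe sets differ in their response.

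Array means lay at 7.47 to 7.50 in total RNA and at 3.78 to 3.79 in polysomal RNA, so TE has no absolute zero and is read only between groups. Polysomal arrays were less alike: their median correlation with the other arrays of the fraction was 0.900 to 0.942, against 0.960 to 0.977 in total RNA. The lowest were untransformed WT embryo 1 (0.900) and transformed WT embryo 3 (0.923). Eif4e itself read 9.10, 8.84 and 9.21 in transformed Het cultures, against 9.80, 9.67 and 9.40 in transformed WT cultures, in total RNA. In untransformed cultures it read 8.69, 8.88 and 8.83 in Het, against 9.21, 9.05 and 9.03 in WT. Het lay below WT in both states without overlap, and the exact two-sided permutation p was 0.1 in each, the smallest that 3 against 3 can give. Eif4e was not called between genotypes in either state (adjusted p = 0.2 in transformed total RNA, limma). In polysomal RNA its genotypes overlapped in both states. Of 10 fibroblast markers 8 lay above the array's 40th percentile on all 12 total RNA arrays.

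After transformation some antioxidant genes were called in total RNA in both genotypes, with no common direction. In Het embryos 9 of 51 members were called, 4 higher and 5 lower, where 14.3% of all genes were called (5.68% higher and 8.58% lower). In WT embryos 12 of 51 were called, 8 higher and 4 lower, where 16.7% of all genes were called (7.62% higher and 9.08% lower). Whether the members' shares differ from those of all genes was not tested. The same 8 genes were called in the same direction in both genotypes: Mgst2, Mt1, Mt2 and Nfe2l2 higher, and Gsta4, Gpx3, Gpx7 and Msrb1 lower. Nqo1 was called in Het embryos alone, and Srxn1, Gsr, Gstp1 and Glrx in WT embryos alone. The matching overlap over all genes was not counted, so neither the shared nor the separate calls are read as particular to the members. The median change of the 51 members was -0.06 in Het and -0.01 in WT embryos, beside 0.04 and 0.00 over all genes tested.

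**Figure D1:**
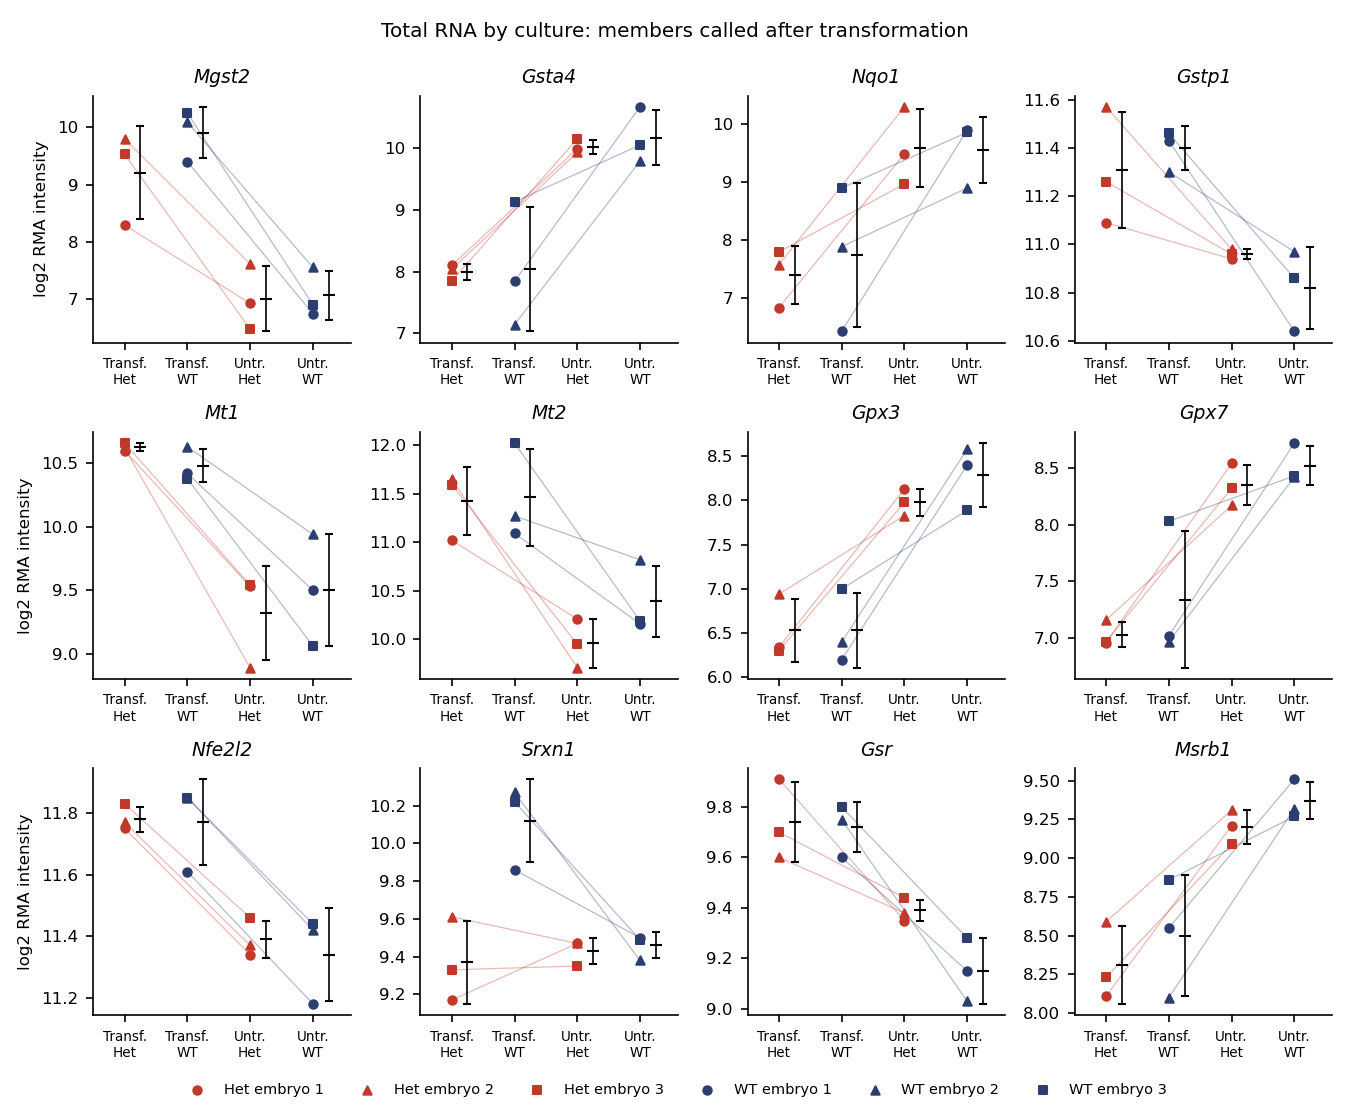
Log2 RMA intensity in total RNA (vertical axes, each panel with its own range) for 12 called members (all but Glrx) in the 4 groups along the horizontal axis, with Het in red and WT in blue, a symbol for each embryo, a line joining the cultures of 1 embryo, and bars for mean and SD (n = 3). Mgst2, Mt1, Mt2 and Nfe2l2 lie higher and Gsta4, Gpx3, Gpx7 and Msrb1 lower in transformed cultures of both genotypes, and for Srxn1 the transformed WT cultures lie above all others.

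The members' counts and the share of all genes called both dropped in fits without an embryo. The Het count was 3 when Het embryo 1 was left out, where 3.79% of all genes were called, and 2 when Het embryo 3 was, where 2.2% were. The WT count was 5 when WT embryo 1 was left out, where 6.42% of all genes were called, and 4 when WT embryo 2 was, where 7.81% were. Mgst2 was called in all 6 fits that left out an embryo in both genotypes, as were Nfe2l2 in WT and Mt1 in Het embryos. Leaving out an embryo of the other genotype changed only the spread and the adjusted p, not the difference. In Het, Nfe2l2 (0.38 and 0.40 on the log2 scale, adjusted p = 0.0743 and 0.0746) and Msrb1 (-0.79 and -0.91, 0.0941 and 0.09) were not called when Het embryo 1 or 3 was left out, nor Mt2 when Het embryo 2 or 3 was (1.22 and 1.37, 0.0899 and 0.135). In WT, Mt1 (1.0, adjusted p = 0.0525), Msrb1 (-0.82, 0.0767) and Gstp1 (0.47, 0.11) were not called when WT embryo 1 was left out. Msrb1 (-0.68, 0.06) and Gsr (0.49, 0.0581) were not when WT embryo 2 was, and Gstp1 (0.56, 0.0566) was not when WT embryo 3 was. All called members moved the same way in 3 of 3 embryos of that genotype. Markers of the cell of origin moved with transformation too. Of the 10 fibroblast markers Col1a1, Col1a2, Fn1 and Thy1 were lower in both genotypes and Pdgfrb also in WT. Their mean level lay between 8.85 and 10.11 in transformed Het, against 10.06 to 10.24 in untransformed Het cultures. In WT cultures it lay between 8.32 and 9.90 in transformed, against 10.02 to 10.34 in untransformed cultures. Of other cell types, 2 of 4 tested endothelial markers (Emcn and Kdr), 2 of 3 leukocyte markers (Csf1r and Ptprc) and 2 of 3 muscle markers (Des and Acta1) were lower in both genotypes, and 0 of 3 epithelial markers were called. The endothelial marker Cdh5 was higher in WT, and of 3 neural markers 1 was higher and 1 lower in Het and 1 higher and 2 lower in WT embryos. The mean muscle level lay at 7.17 to 7.33 in transformed Het and 7.10 to 7.35 in transformed WT, against 7.77 to 8.01 in untransformed Het and 7.96 to 8.0 in untransformed WT cultures. The mean endothelial level lay at 6.32 to 6.38 in transformed Het and 6.39 to 6.52 in transformed WT, against 6.73 to 6.90 in untransformed Het and 6.90 to 7.07 in untransformed WT cultures, and 0 of 5 endothelial markers were above the 40th percentile on all 12 arrays. The mean leukocyte level lay at 6.53 to 6.76 and 6.59 to 7.14 in transformed Het and WT, against 7.0 to 7.29 and 7.12 to 7.22 in untransformed Het and WT cultures. The part of these shifts in the antioxidant results was not tested, and in bulk cultures fewer cells of a type and less RNA per cell cannot be told apart.

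Among the regulators, Nfe2l2 rose and its repressor Keap1 was not called. Nfe2l2 read 11.75, 11.77 and 11.83 in transformed Het, against 11.34, 11.37 and 11.46 in untransformed Het cultures. It read 11.61, 11.85 and 11.85 in transformed WT, against 11.18, 11.42 and 11.44 in untransformed WT cultures. Each transformed culture lay above each untransformed culture of its genotype, and the gain was nearly the same in the 6 embryos, 0.37 to 0.43. The change was 0.39 ± 0.06 (SE, adjusted p = 0.0113, limma) in Het and 0.43 ± 0.06 (adjusted p = 0.0074) in WT embryos, or 1.31-fold and 1.34-fold. Keap1 differed by 0.03 and 0.14 and the autophagy receptor Sqstm1, which can pull KEAP1 away from NRF2, by -0.17 and -0.04 in Het and WT embryos (adjusted p of 0.363 to 0.934). Park7, a redox-sensing chaperone that stabilises NRF2, differed by 0.43 and 0.40, which did not pass (adjusted p = 0.0678 and 0.0759).

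The sequence that NRF2 binds was looked for in the 300 bases around each start, of which 250 lie before it, because Nfe2l2 itself rose. The core TGACNNNGC, on either strand, occurred in 20.6% of the 63 windows of member genes and in 12.4% of 32851 windows of all genes. The 25 bases around the match are shown for Nfe2l2, Mt2 and Srxn1, the called members that hold one, and for the textbook NRF2 targets Gclm, Prdx1 and Txnrd1, which were not called; they are from RefSeq (GRCm38.p6) on the strand of the gene, with the core, or its reverse complement, in capitals.
Nfe2l2 (chr2:75704887-75704911, minus strand, before the start): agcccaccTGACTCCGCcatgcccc
Mt2 (chr8:94172531-94172555, plus strand, before the start): agggggtgTGACTCAGCgcgggggg
Srxn1 (chr2:152105544-152105568, plus strand, after the start): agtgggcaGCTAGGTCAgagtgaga
Gclm (chr3:122245415-122245439, plus strand, before the start): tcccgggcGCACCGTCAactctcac
Prdx1 (chr4:116685458-116685482, plus strand, before the start): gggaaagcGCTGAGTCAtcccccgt
Txnrd1 (chr10:82859106-82859130, plus strand, before the start): ggatttttGCTTTGTCAttctgaca
The Txnrd1 match lies before an alternative start inside the gene, which is annotated from 82833951. The Txnrd1 window at that annotated start and its remaining window held 0 matches. A window was found for 44 of the 51 tested members, and Gclc, Gsr, Gsta4, Hmox1, Msra, Nnt and Sod3 are not in these counts. Of the 11 tested members with a match, 2 rose in Het (Nfe2l2 and Mt2) and 3 in WT embryos (also Srxn1), and 0 fell in either. Of the 33 tested members whose window held no match, 2 rose and 4 fell in Het, and 4 rose and 3 fell in WT embryos. Of all genes, 5.68% rose and 8.58% fell in Het, and 7.62% rose and 9.08% fell in WT embryos. Whether the 2 lists differ from each other or from all genes was not tested. The median change with a match was -0.09 in Het and 0.13 in WT embryos, and without one 0.02 and 0.05. A match of these letters is a description of the window and not a bound site. Sites outside the 300 bases are not seen, and the window of Nqo1, a much used readout of NRF2 activity, held no match.

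Detoxification genes went both ways. Mgst2, a microsomal glutathione S-transferase, rose in both genotypes. It read 8.29, 9.80 and 9.53 in transformed Het, against 6.92, 7.61 and 6.47 in untransformed Het cultures. Its WT values were 9.40, 10.09 and 10.25 in transformed, against 6.74, 7.55 and 6.90 in untransformed cultures. No overlap was seen between the groups, and the change was 2.21 ± 0.30 in Het (SE, adjusted p = 0.00725, limma) and 2.85 ± 0.30 in WT embryos (adjusted p = 0.00256). Of the 6 untransformed values 2 lay below the 40th percentile of their array, so the size of the rise is read against a level near the floor. Gsta4, the alpha class transferase that clears the lipid peroxidation product 4-hydroxynonenal, went the other way. Its values were 8.10, 8.04 and 7.85 in transformed Het, against 9.99, 9.93 and 10.15 in untransformed Het cultures. They were 7.84, 7.14 and 9.13 in transformed WT, against 10.67, 9.79 and 10.05 in untransformed WT cultures. Gsta4 fell in each embryo, least in WT embryo 3, and was 4.07-fold lower in transformed Het (-2.03 ± 0.34, adjusted p = 0.0129) and 4.39-fold lower in transformed WT cultures (-2.13 ± 0.34, adjusted p = 0.00896).

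Nqo1, a quinone reductase and one of the most used readouts of NRF2 activity, was lower while Nfe2l2 was higher. It read 6.84, 7.58 and 7.80 in transformed Het, against 9.49, 10.30 and 8.97 in untransformed Het cultures. WT cultures gave 6.43, 7.89 and 8.90 in transformed, against 9.90, 8.90 and 9.86 in untransformed cultures. The Het groups did not overlap, while the highest transformed WT culture (embryo 3) reached the lowest untransformed WT culture (embryo 2). The drop passed in Het (-2.18 ± 0.53, SE, adjusted p = 0.0381, limma) and was of like size but did not pass in WT embryos (-1.81 ± 0.53, adjusted p = 0.0601). The Het call was lost without any 1 Het embryo (adjusted p of 0.0875 to 0.187), and with a trended robust variance (0.053), and 2 of the 6 transformed values lay below their array's 40th percentile. Hmox1, heme oxygenase and another standard NRF2 target, read 10.09, 11.28 and 9.88 in transformed Het, against 10.92, 11.14 and 10.61 in untransformed Het cultures. In WT it read 10.32, 10.28 and 10.94 in transformed, against 11.25, 11.39 and 10.88 in untransformed cultures. The groups overlapped in both genotypes, and neither -0.47 in Het nor -0.66 in WT embryos passed (adjusted p = 0.275 and 0.14).

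Gstp1, the pi class transferase, read 11.09, 11.57 and 11.26 in transformed Het, against 10.94, 10.98 and 10.96 in untransformed Het cultures. It read 11.43, 11.30 and 11.46 in transformed WT, against 10.64, 10.97 and 10.86 in untransformed WT cultures. The states did not overlap in either genotype, and the change did not pass in Het (0.35 ± 0.12, SE, adjusted p = 0.0996, limma) and passed in WT embryos (0.58 ± 0.12, adjusted p = 0.0207). The mu class genes Gstm1, Gstm2 and Gstm5, the omega class gene Gsto1 and the microsomal genes Mgst1 and Mgst3 were not called, with changes of -0.48 to 0.61 in Het and -0.64 to 0.28 in WT embryos. Whether probe sets of close relatives in these families also catch each other's transcripts was not tested.

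Both metallothioneins rose. They are small cysteine-rich proteins that bind zinc and copper and also quench oxidants, and their genes are switched on by metals and by stress hormones. Mt1 read 10.60, 10.62 and 10.66 in transformed Het, against 9.53, 8.89 and 9.54 in untransformed Het cultures. It read 10.42, 10.63 and 10.38 in transformed WT, against 9.50, 9.94 and 9.06 in untransformed WT cultures. The 6 transformed cultures lay close together and above each untransformed culture. The change was 1.31 ± 0.16 (SE, 2.48-fold, adjusted p = 0.00571, limma) in Het and 0.98 ± 0.16 (1.97-fold, adjusted p = 0.0105) in WT embryos. Mt2 read 11.02, 11.65 and 11.59 in transformed Het, against 10.21, 9.71 and 9.95 in untransformed Het cultures. Its WT values were 11.09, 11.27 and 12.02 in transformed, against 10.16, 10.82 and 10.19 in untransformed cultures. The groups did not overlap, and the change was 1.46 ± 0.29 (adjusted p = 0.0219) in Het and 1.07 ± 0.29 (adjusted p = 0.0499) in WT embryos. The WT call of Mt2 sat at the threshold and held in 3 of the 12 alternatives run. It held in 1 of the 6 fits without an embryo (0.0479 to 0.146), and did not hold with no filter on low values (adjusted p = 0.053), the mean of probe sets (0.0501), a trended robust variance (0.0657) or array weights (0.0523).

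Since the pair moved together, the 250 bases before the start used for each promoter window are printed from RefSeq (GRCm38.p6, mouse chromosome 8, plus strand). The core of the metal response element is in capitals. The core was searched as TGCACNC or TGCGCNC on both strands, and 25.7% of all 32851 windows of 300 bases hold it, 7.11% at least 2 times; the Mt2 stretch also holds, in lower case, the TGACNNNGC match given with the regulators.
Mt1 (chr8:94178839-94179088): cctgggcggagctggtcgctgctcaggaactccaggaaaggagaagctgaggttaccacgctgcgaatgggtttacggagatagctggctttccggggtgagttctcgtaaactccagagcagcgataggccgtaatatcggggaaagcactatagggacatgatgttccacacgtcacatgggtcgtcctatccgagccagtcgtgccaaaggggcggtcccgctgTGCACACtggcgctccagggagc
Mt2 (chr8:94172368-94172617): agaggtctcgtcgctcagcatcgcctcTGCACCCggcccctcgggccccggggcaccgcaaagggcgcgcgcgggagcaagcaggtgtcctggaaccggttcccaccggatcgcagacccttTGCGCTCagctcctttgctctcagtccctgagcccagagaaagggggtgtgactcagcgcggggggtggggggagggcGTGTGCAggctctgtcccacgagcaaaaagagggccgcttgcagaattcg
The Mt1 stretch held 1 match and the Mt2 stretch 3, and the whole 300-base windows held 3 and 4. The annotated Mt1 gene starts at 94178883, inside its printed stretch, and the Mt2 gene at 94172618, just after its stretch. The 2 counts are therefore not alike as counts of matches upstream of the gene.

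The glutathione peroxidases were lower where they changed. Gpx3, the secreted plasma peroxidase, read 6.34, 6.94 and 6.30 in transformed Het, against 8.13, 7.83 and 7.98 in untransformed Het cultures. It read 6.20, 6.40 and 7.0 in transformed WT, against 8.40, 8.58 and 7.89 in untransformed WT cultures. No overlap was seen between the groups, and the change was -1.45 ± 0.29 in Het (SE, adjusted p = 0.0204, limma) and -1.76 ± 0.29 in WT embryos (adjusted p = 0.00943). Of the 6 transformed values 4 lay below the 40th percentile of their array, so the size of the fall is limited by the floor. Gpx7, which acts in the endoplasmic reticulum during protein folding, read 6.96, 7.16 and 6.97 in transformed Het, against 8.54, 8.17 and 8.32 in untransformed Het cultures. WT cultures gave 7.02, 6.97 and 8.03 in transformed, against 8.72, 8.42 and 8.43 in untransformed cultures. The states did not overlap, though transformed WT embryo 3 stood near the untransformed level, and the change was -1.32 ± 0.24 (adjusted p = 0.0167) in Het and -1.19 ± 0.24 (adjusted p = 0.0199) in WT embryos. Gpx1, the abundant cytosolic peroxidase, differed by -0.18 and 0.11, and Gpx8 by -0.13 and -0.23, in Het and WT embryos, and neither was called. In the fits without an embryo the calls of Gpx3, Gpx7 and Gsta4 were lost without WT embryo 1 or 2 in WT (adjusted p of 0.0511 to 0.1) and without Het embryo 1 or 3 in Het embryos (0.0718 to 0.133).

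Genes that make and recycle glutathione were not called in Het embryos and 2 of 7 rose in WT embryos. Of all genes, 14.3% were called in Het and 7.62% rose in WT embryos, and whether the group differs was not tested. Gsr, the reductase that regenerates glutathione with NADPH, read 9.91, 9.60 and 9.70 in transformed Het, against 9.35, 9.38 and 9.44 in untransformed Het cultures. It read 9.60, 9.75 and 9.80 in transformed WT, against 9.15, 9.03 and 9.28 in untransformed WT cultures. The groups did not overlap in either genotype, with 0.35 ± 0.10 (SE, adjusted p = 0.0548, limma) in Het and 0.56 ± 0.10 (adjusted p = 0.011) in WT embryos. Glrx, a glutaredoxin that removes glutathione from proteins, read 9.50, 10.54 and 9.03 in transformed Het, against 8.93, 9.56 and 8.74 in untransformed Het cultures. In WT it read 8.96, 10.53 and 10.44 in transformed, against 8.81, 9.19 and 9.09 in untransformed cultures. The groups overlapped in both genotypes, although each embryo moved up, and the change did not pass in Het (0.61 ± 0.25, adjusted p = 0.146) and passed in WT embryos (0.95 ± 0.25, adjusted p = 0.0437). The Glrx call held in 1 of 6 fits without an embryo (adjusted p of 0.0143 to 0.188), and was lost with no block for the embryo (0.95, adjusted p = 0.16) and with array weights (0.78, adjusted p = 0.0845).

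The genes of glutathione synthesis and its cystine supply were not called. Gclc and Gclm, the 2 subunits of glutamate-cysteine ligase, differed by 0.05 and -0.21 in Het and by -0.17 and -0.22 in WT embryos. Slc7a11, the cystine importer that feeds them, read 7.79, 8.34 and 7.60 in transformed Het, against 8.51, 8.29 and 9.79 in untransformed Het cultures. It read 7.09, 9.50 and 7.96 in transformed WT, against 7.91, 7.98 and 8.98 in untransformed WT cultures. Its groups overlapped, with the largest SE of its role group, and the change was -0.96 ± 0.57 in Het (SE, adjusted p = 0.299, limma) and -0.11 ± 0.57 in WT embryos (adjusted p = 0.926).

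Srxn1 was the peroxiredoxin gene that changed, and it did so in WT embryos. It encodes sulfiredoxin, which repairs peroxiredoxins that have been over-oxidised. It read 9.17, 9.61 and 9.33 in transformed Het, against 9.47, 9.47 and 9.35 in untransformed Het cultures. Its WT values were 9.86, 10.27 and 10.22 in transformed, against 9.50, 9.38 and 9.49 in untransformed cultures. The Het groups overlapped and the WT groups stood apart, with -0.06 ± 0.13 (SE, adjusted p = 0.774, limma) in Het and 0.66 ± 0.13 (1.58-fold, adjusted p = 0.0171) in WT embryos. The test of the difference between the genotypes is given with the genotype results. Srxn1 was no longer called in WT when WT embryo 2 (adjusted p = 0.0834) or WT embryo 3 (0.0501) was left out. The peroxiredoxins themselves were not called: Prdx1 differed by -0.09 and 0.13, Prdx2 by 0.07 and 0.07, Prdx3 by 0.02 and -0.01, and Prdx4, the enzyme of the endoplasmic reticulum, by -0.41 and -0.34 in Het and WT embryos.

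Thioredoxin genes, the superoxide dismutases with catalase, and the NADPH supply group had 0 calls among 5, 4 and 6 genes in either genotype. Over all genes 14.3% were called in Het and 16.7% in WT embryos. Whether groups this small differ from that share was not tested, and 0 calls are not read as a result about them. The cytosolic and mitochondrial thioredoxins Txn1 and Txn2 differed by -0.02 and 0.13 in Het and 0.04 and 0.19 in WT embryos. Their reductases Txnrd1 and Txnrd2 differed by -0.22 and 0.15 in Het and -0.02 and 0.30 in WT embryos. The thioredoxin inhibitor Txnip read 8.99, 10.16 and 8.82 in transformed Het, against 9.85, 10.22 and 9.71 in untransformed Het cultures. It read 9.60, 9.32 and 10.20 in transformed WT, against 9.85, 9.97 and 10.34 in untransformed WT cultures. The groups overlapped, and neither -0.60 in Het nor -0.35 in WT embryos passed (adjusted p = 0.0717 and 0.24). Sod2, the mitochondrial superoxide dismutase, differed by 0.05 and 0.12 and catalase, Cat, by -0.27 and 0.05 in Het and WT embryos. The NADPH supply group lay between -0.21 and 0.12 in Het and between -0.53 and 0.33 in WT embryos, with the transketolase gene Tkt at the upper end in both.

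Methionine repair had 1 called gene of 3 in the group it shares with selenoprotein K. The share of all genes called was 14.3% in Het and 16.7% in WT embryos. Msrb1, the selenium-containing reductase of oxidised methionine, read 8.11, 8.59 and 8.23 in transformed Het, against 9.21, 9.31 and 9.09 in untransformed Het cultures. It read 8.55, 8.10 and 8.86 in transformed WT, against 9.51, 9.32 and 9.27 in untransformed WT cultures. No overlap was seen between the groups and the fall was of like size, -0.89 ± 0.16 (SE, adjusted p = 0.0144, limma) in Het and -0.86 ± 0.16 (adjusted p = 0.0136) in WT embryos. Msra and Selenok, listed as Selk, lay between -0.24 and -0.19 in both genotypes and were not called.

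**Figure D2:**
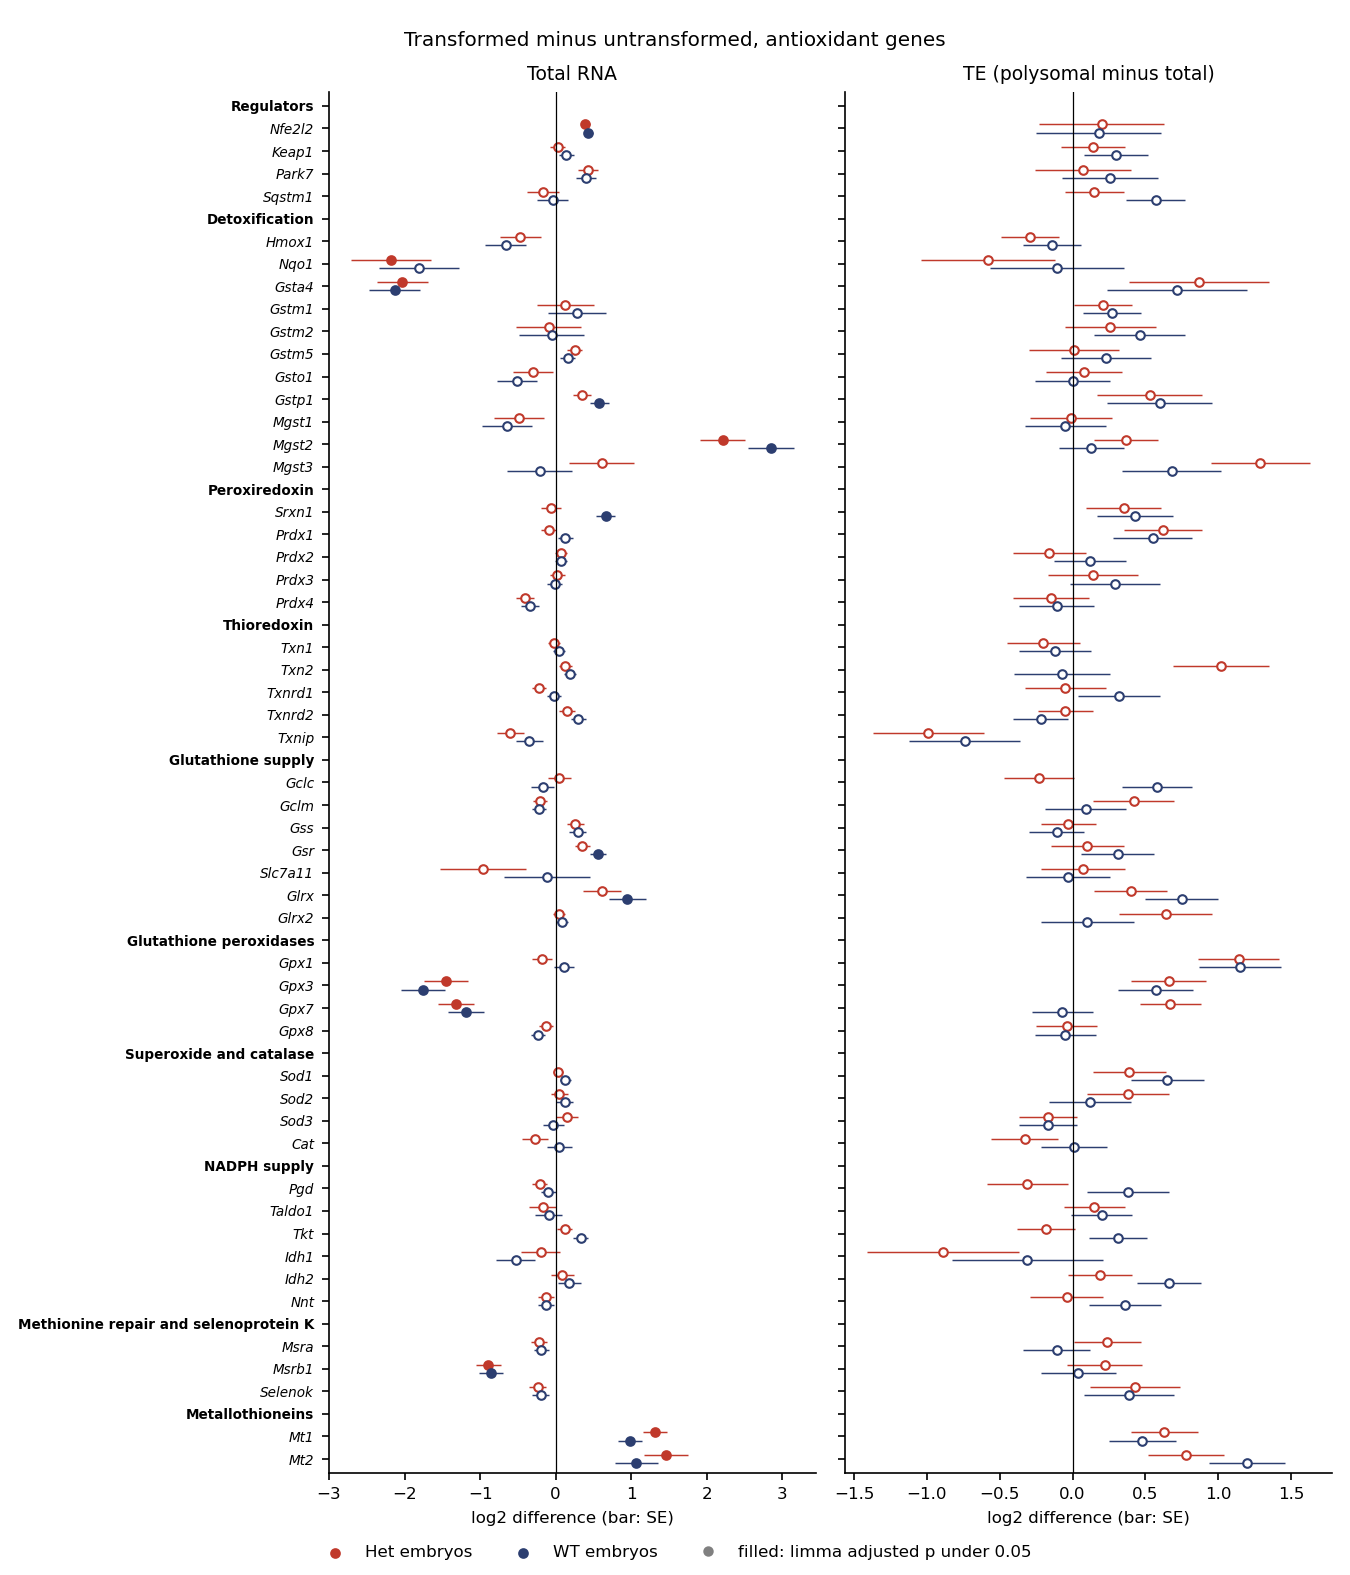
Transformed minus untransformed log2 difference with its SE (horizontal axes) for the 51 tested members by role, in total RNA on the left and TE on the right, Het embryos in red and WT embryos in blue, filled where the limma adjusted p was under 0.05. Filled points lie on both sides of 0 in total RNA (9 in Het, 12 in WT) and there are none in TE.

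Polysomal RNA carried fewer calls. In Het embryos 4 of 51 members were called after transformation, where 1.79% of all genes were called, and in WT embryos 2 of 51, where 1.28% were called. Mgst2 was called in both. It read 4.74, 6.02 and 6.58 in transformed Het polysomes, against 3.00, 3.41 and 3.18 in untransformed Het polysomes. In WT polysomes it read 5.85, 6.79 and 6.38 in transformed, against 3.06, 3.65 and 3.37 in untransformed cultures. The untransformed values lie around the 40th percentile of these arrays (3.13 to 3.32), so the polysomal fold of 5.98 in Het (2.58 ± 0.29, SE, adjusted p = 0.0104, limma) and 7.88 in WT (2.98 ± 0.29, adjusted p = 0.00649) starts from a level near the array's floor.

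Mt1 also rose in Het polysomes, and Srxn1 in WT polysomes. Mt1 read 8.23, 8.38 and 8.59 in transformed Het, against 6.67, 6.19 and 6.53 in untransformed Het polysomes (1.94 ± 0.29, SE, 3.84-fold, adjusted p = 0.0202, limma). In WT polysomes it read 8.04, 8.18 and 8.29 in transformed, against 6.53, 7.51 and 6.09 in untransformed cultures (1.46 ± 0.29, adjusted p = 0.0618). Its groups did not overlap in either genotype. Srxn1 read 4.61, 4.80 and 4.89 in transformed Het, against 4.41, 4.58 and 4.43 in untransformed Het polysomes (0.29 ± 0.20, adjusted p = 0.591). In WT polysomes it read 5.47, 5.71 and 5.76 in transformed, against 3.96, 4.90 and 4.81 in untransformed cultures (1.09 ± 0.20, 2.13-fold, adjusted p = 0.0456). Both pairs of groups stood apart, by a narrow gap in Het and a wide one in WT.

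Nqo1 and Txnip fell in Het polysomes. Nqo1 read 3.05, 2.93 and 3.15 in transformed Het, against 5.44, 6.92 and 5.05 in untransformed Het polysomes (-2.76 ± 0.52, SE, adjusted p = 0.0438, limma). In WT polysomes it read 2.69, 3.59 and 4.05 in transformed, against 5.42, 4.0 and 6.66 in untransformed cultures (-1.92 ± 0.52, adjusted p = 0.137). The Het groups were far apart and the WT groups overlapped, and 4 of the 6 transformed values lay below their array's 40th percentile. Txnip read 4.37, 4.86 and 3.71 in transformed Het, against 5.71, 6.58 and 5.43 in untransformed Het polysomes (-1.59 ± 0.31, adjusted p = 0.0485). In WT polysomes it read 4.62, 4.43 and 4.80 in transformed, against 5.17, 5.02 and 6.92 in untransformed cultures (-1.09 ± 0.31, adjusted p = 0.155). Its groups did not overlap in either genotype, and with no block for the embryo the Het call was lost (adjusted p = 0.0834). The polysomal counts and the share of all genes called moved together in fits without an embryo. The Het count was 0 when any 1 Het embryo was left out, where 0% to 0.162% of all genes were called. It was 2 when WT embryo 1 was left out (1.57% of all genes) and 8 when WT embryo 3 was (8.91%). The WT count was 0 when WT embryo 1 or 2 was left out (0.142% and 0.169% of all genes), 14 when WT embryo 3 was (11.7%) and 1 when any 1 Het embryo was (0.479% to 0.695%). Without both weak polysomal arrays, a choice made after the data were seen, the counts were 13 in Het (9.77% of all genes) and 4 in WT embryos (2.72%), and Srxn1 lost its WT call (0.81, adjusted p = 0.199), as it did with a trended robust variance (1.09, adjusted p = 0.0786).

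TE after transformation was called for 0 of 51 members in either genotype, where 0.297% of all genes were called in Het and 0.701% in WT embryos. At an unadjusted p under 0.05 there were 9 of 51 members in Het, where 10.3% of all genes had one, and 7 of 51 in WT embryos, where 10.0% had one. The median TE change of the members was 0.15 in Het and 0.23 in WT embryos, beside -0.01 and 0.03 over all genes. Gpx1 was among the 2 smallest p-values of both genotypes. Its TE read -4.12, -4.57 and -3.57 in transformed Het, against -4.92, -5.73 and -5.04 in untransformed Het cultures. WT cultures gave -4.10, -4.05 and -4.07 in transformed, against -6.01, -4.53 and -5.12 in untransformed cultures. The states did not overlap, and TE was higher by 1.14 ± 0.28 in Het (SE, adjusted p = 0.168, limma) and 1.15 ± 0.28 in WT embryos (adjusted p = 0.153), while total Gpx1 RNA was not called (-0.18 and 0.11). The Gpx1 mRNA carries a selenocysteine codon, as do those of Gpx3, Selenok, Msrb1, Txnrd1 and Txnrd2. In Het and WT embryos TE differed by 0.66 and 0.57 for Gpx3 and by 0.43 and 0.39 for Selenok. It differed by 0.22 and 0.04 for Msrb1, -0.05 and 0.32 for Txnrd1, and -0.05 and -0.22 for Txnrd2. Whether the codon has a part in these differences was not tested.

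Mt2 had the smallest p in WT. Its TE read -2.57, -2.65 and -2.11 in transformed Het, against -3.10, -3.24 and -3.33 in untransformed Het cultures (0.78 ± 0.26, SE, adjusted p = 0.318, limma). In WT it read -2.39, -2.51 and -2.09 in transformed, against -3.95, -3.05 and -3.58 in untransformed cultures (1.20 ± 0.26, adjusted p = 0.0984). The groups stood apart in both genotypes without passing the test. Next in Het came Mgst3 with 1.29 ± 0.34 (adjusted p = 0.196), Gpx7 with 0.67 ± 0.21 (adjusted p = 0.298) and the mitochondrial thioredoxin Txn2 with 1.02 ± 0.33 (adjusted p = 0.311). The TE of Mgst3 read -2.85, -2.58 and -2.40 in transformed Het, against -2.97, -4.60 and -4.13 in untransformed Het cultures. That of Txn2 read -3.29, -3.56 and -2.63 in transformed Het, against -4.03, -4.57 and -3.95 in untransformed Het cultures. That of Gpx7 read -3.45, -3.31 and -3.81 in transformed Het, against -4.36, -4.19 and -4.05 in untransformed Het cultures. In all 3 genes each transformed culture lay above each untransformed one.

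In WT embryos the next were Idh2, a mitochondrial NADPH source (0.66 ± 0.22, SE, adjusted p = 0.325, limma), Glrx (0.75 ± 0.25, adjusted p = 0.34) and Sqstm1 (0.57 ± 0.20, adjusted p = 0.38). The TE of Idh2 read -3.67, -3.42 and -3.43 in transformed WT, against -4.58, -4.14 and -3.78 in untransformed WT cultures. That of Glrx read -3.94, -3.50 and -3.45 in transformed WT, against -4.34, -4.65 and -4.14 in untransformed WT cultures. That of Sqstm1 read -3.92, -3.77 and -2.87 in transformed WT, against -4.12, -4.57 and -3.57 in untransformed WT cultures. Idh2 and Glrx stood apart between the states and Sqstm1 overlapped. By role, the TE medians in Het and WT embryos were 0.21 and 0.23 for detoxification, 0.10 and 0.10 for glutathione supply, 0.67 and 0.26 for the glutathione peroxidases, 0.14 and 0.29 for the peroxiredoxin genes and -0.05 and -0.12 for the thioredoxin genes. Without WT embryo 3, 4 members were called in each genotype, where 3.64% of all genes were called in Het and 5.94% in WT embryos, Gpx1 among them in both (adjusted p = 0.0292 in Het and 0.0421 in WT). Without both weak polysomal arrays 5 were called in Het embryos, where 4.64% of all genes were.

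Heterozygosity for Eif4e was then compared with WT within the transformed cultures. In total RNA 0 of 51 members were called, where 0.0472% of all genes were called, and 3 of 51 had an unadjusted p under 0.05, where 9.3% of all genes had one. Het minus WT had a median of -0.08 in the members, with 15 of 51 positive, beside 0.01 over all genes. By role it was -0.16 for the glutathione peroxidases, -0.14 for methionine repair with selenoprotein K, -0.10 for detoxification and for superoxide dismutases with catalase, -0.09 for thioredoxin, -0.07 for peroxiredoxin genes and for regulators, -0.06 for glutathione supply, 0.04 for NADPH supply and 0.06 for the metallothioneins.

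Srxn1 had the smallest p of the members. Its values in transformed cultures, given with the transformation results, placed each Het culture (9.17 to 9.61) below each WT culture (9.86 to 10.27). The Het mean was 9.37 ± 0.22 and the WT mean 10.12 ± 0.22 (SD, n = 3 each), so that Het cultures held 59.5% of the WT level (exact two-sided permutation p = 0.1, the smallest possible). In limma the difference was -0.75 ± 0.13 (SE, adjusted p = 0.0834), which did not pass. Over the alternatives it lay between -0.88 and -0.65, with an adjusted p of 0.0411 with array weights, 0.0449 after quantile normalization and up to 0.907 when the transformed arrays were fitted alone. In polysomal RNA the Het cultures were again all below the WT cultures, 4.61 to 4.89 against 5.47 to 5.76, at 54.2% of the WT level (-0.88 ± 0.23, adjusted p = 1). TE of Srxn1 differed by -0.14 ± 0.24, with overlapping groups.

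**Figure D3:**
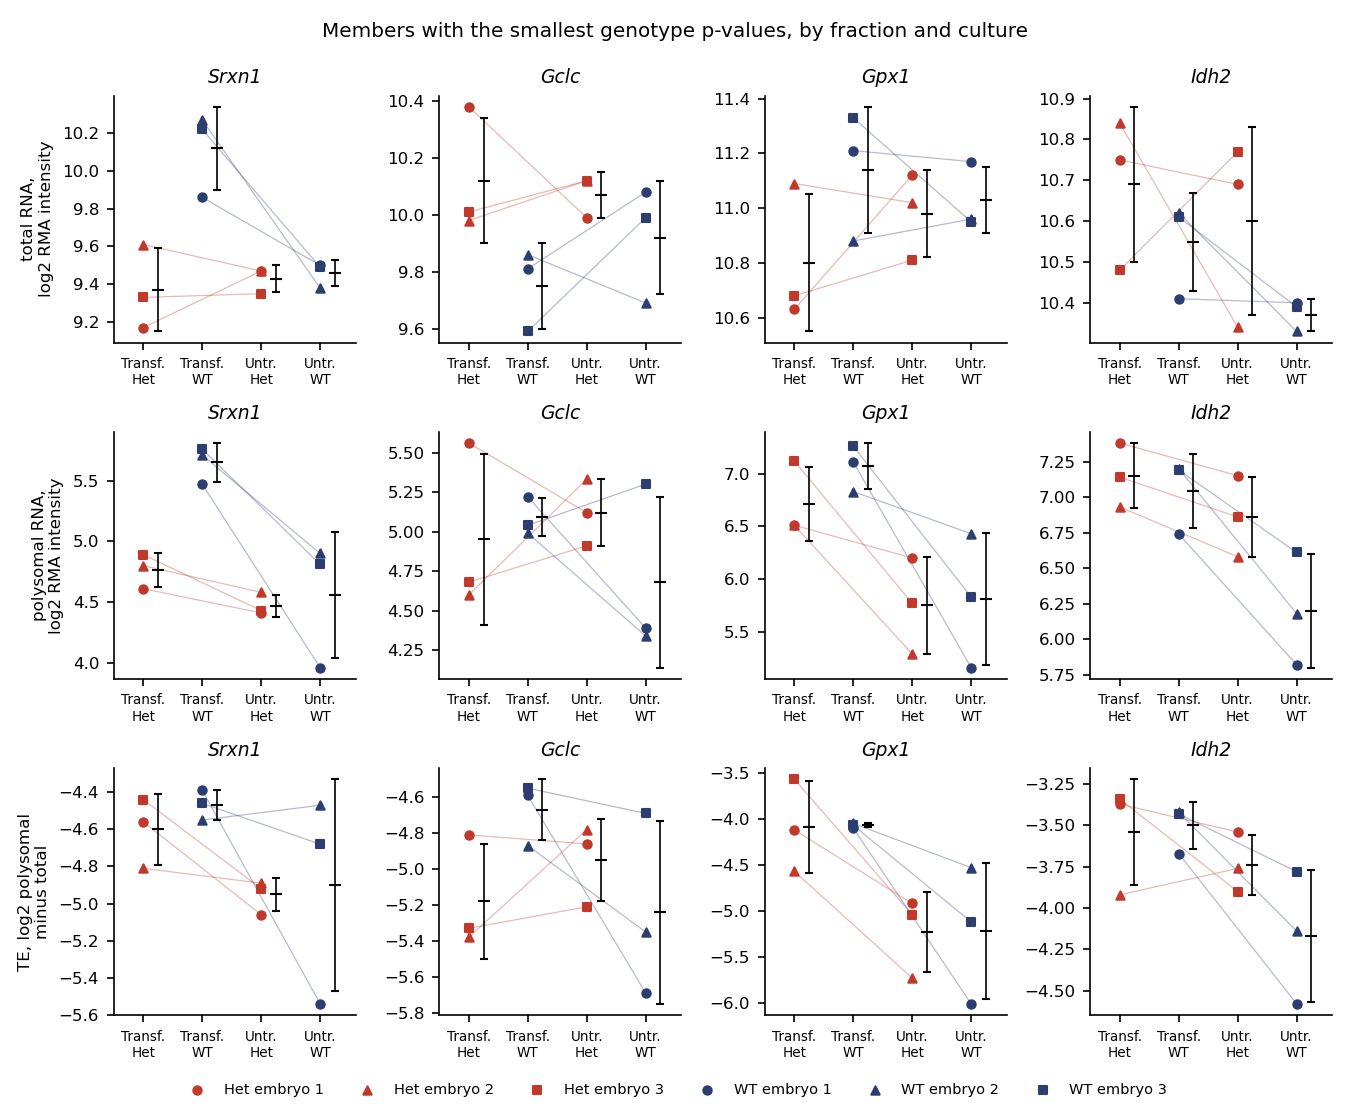
Values by culture of Srxn1, Gclc, Gpx1 and Idh2 (columns) in total RNA, polysomal RNA and TE (rows), on log2 scales with a range of their own, with Het in red and WT in blue, a symbol for each embryo, lines joining the cultures of 1 embryo, and bars for mean and SD (n = 3). Transformed Het cultures lie below transformed WT cultures for Srxn1 in both fractions and above them for Gclc in total RNA, while Gpx1 and Idh2 overlap in the transformed state.

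Gclc, the catalytic subunit for glutathione synthesis, came next in total RNA and was higher in Het. It read 10.38, 9.98 and 10.01 in transformed Het, against 9.81, 9.86 and 9.59 in transformed WT cultures. The genotypes did not overlap, with Het at 129% of WT, and 0.37 ± 0.13 did not pass (SE, adjusted p = 0.422, limma). In polysomal RNA it read 5.56, 4.60 and 4.68 in transformed Het, against 5.22, 4.99 and 5.04 in transformed WT cultures. There 2 of 3 Het cultures lay below all WT cultures, so that TE, at -4.81, -5.38 and -5.33 in Het against -4.59, -4.87 and -4.55 in WT, overlapped and had the smallest TE p of the members (-0.51 ± 0.25, unadjusted p = 0.0658, adjusted p = 1). Gclm, its partner, differed by 0.05 in total RNA.

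Gpx1 read 10.63, 11.09 and 10.68 in transformed Het, against 11.21, 10.88 and 11.33 in transformed WT cultures (-0.33 ± 0.15, SE, adjusted p = 0.518, limma). Prdx1 read 11.60, 11.72 and 11.37 in transformed Het, against 11.62, 11.74 and 12.06 in transformed WT cultures (-0.24 ± 0.12, adjusted p = 0.56). Mgst2 differed by -0.71 ± 0.41 (adjusted p = 0.621), with the transformed values already given. The genotypes overlapped in all 3 genes. Nfe2l2 (0.01), Keap1 (-0.10), Nqo1 (-0.34), Hmox1 (-0.10), Txnrd1 (-0.09), Slc7a11 (-0.28), Sod2 (0.09), Cat (-0.22), Mt1 (0.15), Mt2 (-0.04), Sqstm1 (-0.24) and Txnip (-0.38) had Het minus WT differences in total RNA that did not pass.

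In transformed polysomes 0 of 51 members were called, where 0.0% of all genes were called, and 1 of 51 had an unadjusted p under 0.05, where 3.22% of all genes had one. After Srxn1 the smallest p-values belonged to Mgst2 (-0.56), Sod2 (0.35), Mgst3 (0.96) and Txn2 (0.46), all with an adjusted p of 1 in limma. Sod2 read 4.70, 4.43 and 4.72 in transformed Het, against 4.03, 4.73 and 4.05 in transformed WT polysomes. Mgst3 read 5.16, 6.40 and 6.18 in transformed Het, against 3.46, 6.26 and 5.15 in transformed WT polysomes. Txn2 read 6.92, 6.68 and 7.43 in transformed Het, against 6.38, 6.59 and 6.68 in transformed WT polysomes. Only Txn2 of these 3 had all Het cultures at or above the WT cultures, and its lowest Het value touched the highest WT value to 2 decimals.

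TE in transformed cultures was called for 0 of 51 members, and 0 of 51 had an unadjusted p under 0.05, where 0.0% and 2.9% of all genes did. The median difference was 0.01, beside -0.02 over all genes. After Gclc came Gpx7, at -3.45, -3.31 and -3.81 in Het against -3.76, -3.80 and -4.27 in WT (0.42 ± 0.24, SE). Mgst3 read -2.85, -2.58 and -2.40 in Het against -3.69, -2.75 and -3.16 in WT (0.59 ± 0.39). Nnt, the mitochondrial transhydrogenase that makes NADPH, read -6.23, -5.63 and -5.89 in Het against -5.60, -5.40 and -5.66 in WT (-0.37 ± 0.24), and Txn2 differed by 0.56 ± 0.40 with all Het cultures above all WT cultures (-3.29, -3.56 and -2.63 against -3.77, -3.67 and -3.71). Of these genes Txn2 alone did not overlap between the genotypes, and each had an adjusted p of 1 in limma.

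**Figure D4:**
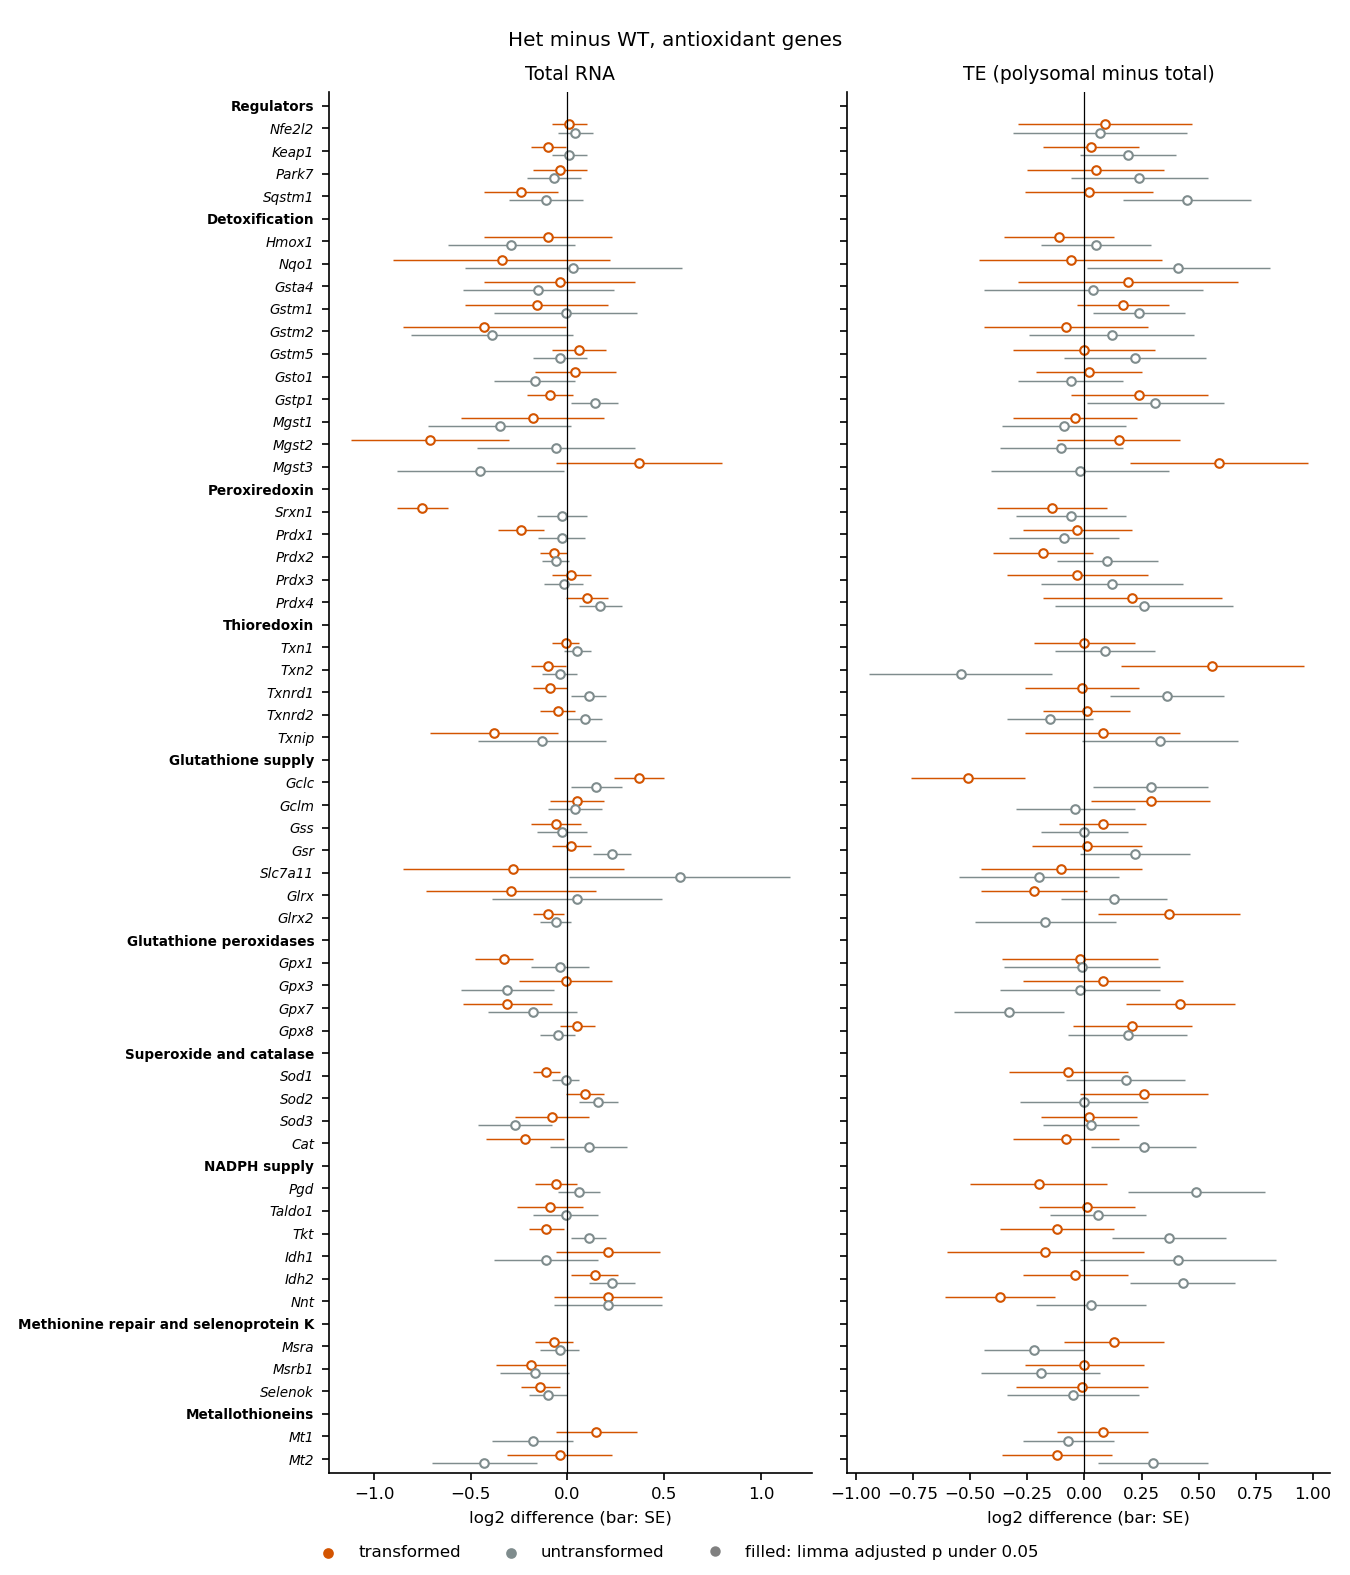
Het minus WT log2 difference with its SE (horizontal axes) for the 51 tested members by role, in total RNA on the left and TE on the right, transformed cultures in orange and untransformed cultures in grey, filled where the limma adjusted p was under 0.05. No point is filled; Srxn1 in transformed total RNA (-0.75) stands farthest from 0 relative to its error.

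The same comparison in untransformed cultures gave no call either. In total RNA 0 of 51 members were called, where 0.0% of all genes were called, and 1 of 51 had an unadjusted p under 0.05, where 2.37% of all genes had one. That gene was Gsr, at 9.35, 9.38 and 9.44 in untransformed Het, against 9.15, 9.03 and 9.28 in untransformed WT cultures. The genotypes did not overlap, and the difference was 0.23 ± 0.10 (SE, unadjusted p = 0.0336, adjusted p = 1, limma). Idh2 read 10.69, 10.34 and 10.77 in untransformed Het, against 10.40, 10.33 and 10.39 in WT cultures (0.23 ± 0.12). Prdx4 read 10.30, 10.23 and 10.36 in Het, against 10.21, 9.96 and 10.21 in WT cultures (0.17 ± 0.11), and its genotypes did not overlap while those of Idh2 did. Sod2 (0.16 ± 0.10) and Mt2 (-0.43 ± 0.27) followed, each with overlapping genotypes. Srxn1 differed by -0.03, with 9.35 to 9.47 in untransformed Het, against 9.38 to 9.50 in untransformed WT cultures.

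Polysomal RNA of untransformed cultures gave no call. With 0 of 51 members called (0.0% of all genes) 2 of 51 had an unadjusted p under 0.05, where 1.67% of all genes had one. Both were in the NADPH supply group. Idh2 read 7.15, 6.58 and 6.86 in untransformed Het, against 5.82, 6.18 and 6.61 in untransformed WT polysomes (0.66 ± 0.23, SE, unadjusted p = 0.0152, adjusted p = 1, limma). Tkt read 5.30, 5.49 and 5.41 in untransformed Het, against 4.76, 4.73 and 5.27 in untransformed WT polysomes (0.48 ± 0.21, unadjusted p = 0.0415, adjusted p = 1). The genotypes stood apart for Tkt and overlapped for Idh2. All 6 genes of the NADPH supply group had positive differences with a median of 0.39, beside 0.10 over all members and 0.02 over all genes. The WT values that set these differences come partly from untransformed WT embryo 1, the polysomal array with the lowest median correlation. Next were Gpx7 (-0.51), Mgst1 (-0.43) and Gsr (0.46). Gpx7 read 4.18, 3.98 and 4.28 in untransformed Het, against 4.88, 4.96 and 4.13 in untransformed WT polysomes. Mgst1 read 4.11, 3.86 and 3.39 in Het, against 4.16, 4.41 and 4.10 in WT polysomes, and Gsr 6.26, 6.37 and 5.79 in Het, against 5.19, 5.79 and 6.05 in WT polysomes. The genotypes of all 3 overlapped.

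In TE of untransformed cultures no call was made among 51 members, and an unadjusted p under 0.05 was found for 0 of them, where 0.0% and 1.45% of all genes did, and the median difference was 0.07, beside 0.03 over all genes. The 6 genes of the NADPH supply group had a median of 0.39 and were all positive. Idh2 read -3.54, -3.76 and -3.90 in Het, against -4.58, -4.14 and -3.78 in WT (0.43 ± 0.23, SE). Pgd, of the pentose phosphate pathway, read -4.04, -4.11 and -4.87 in Het, against -5.31, -5.17 and -4.01 in WT (0.49 ± 0.30). In both genes WT embryo 3 lay within or above the Het range, so the genotypes overlapped. Sqstm1 (0.45 ± 0.28), Tkt (0.37 ± 0.25) and Txnrd1 (0.36 ± 0.25) were next, with an adjusted p of 1 each in limma. Sqstm1 read -3.62, -3.46 and -3.85 in Het, against -4.12, -4.57 and -3.57 in WT. Tkt read -4.09, -3.79 and -4.03 in Het, against -4.65, -4.44 and -3.92 in WT, and Txnrd1 -3.10, -3.01 and -3.16 in Het, against -3.97, -3.53 and -2.84 in WT. In all 3 genes WT embryo 3 again reached the Het range and the other two WT cultures lay below it.

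Whether the genotype difference itself changed with transformation was tested as a difference of differences, transformed minus untransformed. In total RNA, polysomal RNA and TE 0 of 51 members were called, where 0.0% of all genes were called in each. In total RNA 1 of 51 had an unadjusted p under 0.05, where 4.88% of all genes had one, and it was Srxn1 (-0.72 ± 0.18, SE, unadjusted p = 0.00539, adjusted p = 0.916, limma). Its transformed minus untransformed difference was -0.31, 0.14 and -0.02 in the 3 Het embryos, against 0.36, 0.89 and 0.73 in the 3 WT embryos. Each Het embryo lay below each WT embryo. The next total RNA p-values belonged to Gsr (-0.21 ± 0.14), Gpx1 (-0.29 ± 0.18), Txnrd1 (-0.20 ± 0.13) and Mgst2 (-0.65 ± 0.43), each with an adjusted p of 0.916. In polysomal RNA 5 of 51 had an unadjusted p under 0.05, where 2.12% of all genes had one: Tkt (-0.71 ± 0.23), Srxn1 (-0.80 ± 0.28), Cat (-0.67 ± 0.23), Txn2 (1.04 ± 0.43) and Pgd (-0.80 ± 0.35). In TE 3 of 51 did, where 1.95% of all genes had one: Gpx7 (0.75 ± 0.30), Gclc (-0.80 ± 0.34) and Txn2 (1.10 ± 0.47). Each of these had an adjusted p of 1, and none passed.

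Other genes of the same pathways, a second list of 60 of which 54 were measured and 52 tested, were counted the same way. After transformation 5 of 52 rose and 3 fell in total RNA of Het embryos, and 4 rose and 7 fell in WT embryos, beside the same shares of all genes as above. Msrb3, a second methionine sulfoxide reductase, fell by 1.17 in Het (SE 0.14, adjusted p = 0.00479, limma) and by 1.57 in WT embryos (SE 0.14, adjusted p = 0.00152), also in polysomal RNA (by 1.3 and by 1.85), and Cbr3, a carbonyl reductase, by 0.77 (adjusted p = 0.0091) and by 0.90 (adjusted p = 0.00455). Rpia, an isomerase of the pentose phosphate pathway, rose by 0.42 and 0.48, and the exporter gene Abcc4, also called in both, by 0.77 and 0.95. Gstz1 and Glrx3 rose and the NRF2 relative Nfe2l1 fell in Het embryos (0.52, 0.30 and -0.65), and Slc1a4 and Gstk1 fell in WT embryos (-0.83 and -1.39). Msrb3 kept its total RNA call in both genotypes in fits without an embryo. Without any 1 Het embryo the Het calls of Rpia, Gstz1 and Glrx3 were lost (adjusted p of 0.0627 to 0.182, limma). So was that of Msrb3 in Het polysomal RNA (0.175 to 0.221). Those of Cbr3 and Nfe2l1 in Het were lost without Het embryo 1 or 3. In WT, Abcc4, Slc1a4 and Gstk1 were lost without WT embryo 1 or 2, and Rpia without WT embryo 2 or 3. In the genotype comparisons 0 of 52 were called in either state or any fraction.

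Fth1, the heavy chain of ferritin that stores iron and an mRNA under iron-dependent translational control, was the one gene of both lists with a TE call and a matching polysomal call. Its total RNA read 12.60, 12.93 and 12.65 in transformed Het and 12.68, 12.93 and 12.98 in transformed WT, against 12.70, 12.74 and 12.56 in untransformed Het and 12.79, 12.83 and 12.71 in untransformed WT cultures. Its TE read -6.18, -5.79 and -6.32 in transformed Het, against -6.96, -6.80 and -7.04 in untransformed Het cultures. Its WT values were -5.63, -5.43 and -4.41 in transformed, against -7.34, -6.79 and -6.45 in untransformed cultures. Total levels overlapped between the states while TE stood apart in both genotypes, by 0.83 ± 0.20 in Het (SE, adjusted p = 0.168, limma) and 1.70 ± 0.20 in WT embryos (3.25-fold, adjusted p = 0.014). Between genotypes the transformed Het cultures had 52.2% of the WT TE and lay below each WT culture (-0.94 ± 0.30, adjusted p = 1, exact two-sided permutation p = 0.1, the smallest possible). The highest WT value there, -4.41, came from WT embryo 3, whose polysomal array was one of the weak ones, and it raises the WT mean. Leaving out WT embryo 1 (1.7, adjusted p = 0.0761), WT embryo 2 (1.87, adjusted p = 0.0626) or both weak polysomal arrays (1.36, adjusted p = 0.129) ended the WT call. Gstk1, a mitochondrial transferase, also had a TE call in WT embryos (1.36 ± 0.21, adjusted p = 0.03), but its polysomal values, 2.44 to 3.14, lay below the 40th percentile of their array on all 12 polysomal arrays, while its total RNA fell; without WT embryo 1 or 2, any 1 Het embryo or both weak arrays it was not called (adjusted p of 0.082 to 0.202).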

How the data were processed

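Total RNA and polysomal RNA of 12 MEF cultures were measured on 24 Affymetrix Mouse Gene 1.0 ST arrays. Polysomes came from cells treated with 100 µg/ml cycloheximide, separated on 10 to 50% sucrose, per the labels' protocols. The deposited values are log2 intensities that the authors made with RMA, per the labels' design text and the submitters' processing notes; the sources used here give neither the RMA version nor the probe set definition. Array means are level within each fraction, so a change common to all genes cannot be seen.

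Of 25668 probe sets 20777 carried 1 gene symbol in GEO's platform annotation, 232 several and 4659 none; each gene took its brightest probe set with 1 symbol. Tests used limma 3.58.1 in R 4.3.3 with Benjamini-Hochberg adjustment over all genes kept. Genotype was tested with 4 group means. Transformation and the difference of genotype effects had the embryo as a block. The embryo was read from the number that follows the genotype in each sample title. The titles of all Het samples carry the same biological replicate number, and the number after the genotype was used for them too. Deviations of an embryo's 2 cultures correlated at -0.058 to 0.219 in total RNA. They correlated at -0.438 to 0.062 in polysomal RNA and at -0.413 to 0.097 in TE, lowest for WT embryo 3 in both. Each fit shared 1 estimate of spread over all groups of a fraction. Replicates were taken as separate embryos. Precision is limited by 3 arrays a group.

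The members and lists were chosen with earlier results of these data known. Genes named with values are, in each comparison, the called members or, with none called, the 5 smallest p-values, plus core NRF2 pathway genes and up to 6 called genes of the second list; Fth1 and Gstk1 are named also for their TE calls. Alternatives were quantile normalization, no filter, the mean of probe sets, a trended robust variance, array weights, the block added or dropped, a fit on 1 state, and leaving out each embryo.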

Additional observations from a re-analysis of the deposited data

How the results depend on the processing

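No called result changed sign under the alternatives run. For called members the fits without an embryo could not have reversed it, because each moved the same way in all embryos of its genotype. Leaving out an embryo of the other genotype keeps the difference and changes only its spread and adjusted p. The mean of probe sets alters the values of Prdx2 alone among the members. Leaving out 1 embryo at a time, the number of members called after transformation ranged in Het embryos over 2 to 10 (total RNA, 9 with all embryos), 0 to 8 (polysomal RNA, 4) and 0 to 4 (TE, 0), and in WT embryos over 4 to 11 (total RNA, 12), 0 to 14 (polysomal RNA, 2) and 0 to 4 (TE, 0). The share of all genes called ranged in the same fits too. In Het embryos it was 2.2% to 17.3% (total RNA), 0% to 8.91% (polysomal RNA) and 0% to 3.64% (TE). In WT embryos it was 6.42% to 16.1%, 0.142% to 11.7% and 0.0944% to 5.94%. The genotype comparisons and the difference of genotype effects stayed at 0 members in these fits. With array weights the Het counts were 10 in polysomal RNA (9.1% of all genes) and 1 in TE (2.52%). The WT polysomal count was then 6 (3.76%). Quantile normalization gave 4 in WT polysomal RNA (2.13% of all genes). The fit with no replicate block gave 5 in WT polysomal RNA (2.54% of all genes). It gave 1 in WT TE (1.27% of all genes), which was Mt2 (adjusted p = 0.0219, limma). It ended the calls of Glrx in WT total RNA (adjusted p = 0.16) and Txnip in Het polysomal RNA (0.0834). The 2 weak polysomal arrays were also left out, a choice made after seeing the data. The counts were then 13 in Het (9.77% of all genes) and 4 in WT polysomal RNA (2.72%), and 5 in Het TE (4.64%). Gpx1 (adjusted p = 0.0078), Mgst3 (0.0276) and Txn2 (0.0138) were then called in Het TE. Srxn1 was the 1 member called between genotypes in transformed total RNA, with quantile normalization or array weights. The replicate block changed no genotype call in any of the 32 single-gene results it was run on. Same-numbered embryos of the 2 genotypes correlated at -0.326 to 0.484 in total RNA. The correlation was highest for number 1 in both states (0.484 in untransformed and 0.347 in transformed cultures). Whether same-numbered cultures were handled together was not tested. The causes of the changed counts and calls were not tested either, and leaving out an embryo also lowers the sample number. Polysomal signals of Mgst2 in untransformed, Nqo1 in transformed and Gstk1 in all cultures lie near or below the array's 40th percentile (3.13 to 3.32), which limits their polysomal and TE differences.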
